A study of Mus musculus with 12 samples.

Results

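Mucins, trefoil factors, the mucin-folding enzyme Agr2 and mesothelin are secreted or cell surface proteins of pancreatic ductal adenocarcinoma. They were followed across 12 mouse tumours as 10 genes of the 24956 in the count table: Muc1, Muc4, Muc5ac, Muc6, Muc20, Tff1, Tff2, Tff3, Agr2 and Msln. The genes were chosen by symbol, with earlier results of these data known, and all 10 had a row. The tumours were grown from PDA.69, a pancreatic cancer cell line derived from the KPC mouse model and labelled as T cell-low. The hosts were WT mice (6 tumours) or Alb-Cre+/+ Stat3f/f mice (6 tumours, written Alb-Cre Stat3f/f below). Cre under the albumin promoter places the Stat3 deletion of the latter in host hepatocytes, while every tumour was grown from the same single line. The labels give no agent, age, sex or batch, do not say whether the WT hosts carried the floxed alleles, and do not tie tumours to individual mice. The p-values therefore measure the spread between these tumours.

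Mucins are proteins heavily decorated with O-linked sugars. Muc1, Muc4 and Muc20 span the plasma membrane, while Muc5ac and Muc6 are secreted and form gels, Muc5ac in gastric surface cells and Muc6 in gastric glands. Trefoil factors are small, protease-resistant peptides secreted together with mucins; Tff1 accompanies Muc5ac and Tff2 accompanies Muc6 in the stomach, and Tff2 was first isolated from pancreas as spasmolytic polypeptide. Agr2 is a disulfide isomerase of the endoplasmic reticulum needed for mucin folding in the intestine. Mesothelin, the product of Msln, is a glycolipid-anchored surface protein of mesothelial cells that many pancreatic cancers express. In human disease MUC1, MUC4, MUC5AC, AGR2 and trefoil factors appear during formation of ductal precursor lesions.

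The genes lie at separate loci, except for a few neighbours (positions in GRCm38, the mm10 build). Muc1 lies at chr3:89229057-89233381 on the plus strand, Agr2 at chr12:35992907-36004087 on the plus strand and Msln at chr17:25748613-25754378 on the minus strand. Tff3 (chr17:31125306-31129646), Tff2 (chr17:31141049-31144282) and Tff1 (chr17:31161395-31165277) follow each other on the minus strand, and an antisense gene, Gm15318, covers 1660 bases of Tff1. Muc6 (chr7:141633456-141655319, minus strand) and Muc5ac (chr7:141788972-141819231, plus strand) are also neighbours. Muc4 (chr16:32735886-32782391, plus strand) and Muc20 (chr16:32777419-32797435, minus strand) overlap by 4973 bases on opposite strands. With a strand setting not given in the sources used here, reads of Muc4 and Muc20, or of Tff1 and Gm15318, may have been exchanged.

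Upstream sequence was at hand for 5 of the 10 genes in RefSeq (GRCm38.p6), namely Muc1, Muc4, Muc6, Muc20 and Agr2. The set of RefSeq promoter sequences at hand held no entry for Muc5ac, Tff1, Tff2, Tff3 and Msln. Muc4 and Agr2 are printed because their levels varied together across the tumours, and Muc1 because it was the most abundant mucin and did not share their pattern. Each line gives the 250 bases before the RefSeq start of the gene, on the plus strand, at chr3:89228806-89229055 for Muc1, chr16:32735636-32735885 for Muc4 and chr12:35992675-35992924 for Agr2. The RefSeq start of Agr2 lies downstream of the GENCODE start given above, so the end of its line reaches into the GENCODE gene. Capitals mark matches to 5 motifs searched on both strands.
Muc1: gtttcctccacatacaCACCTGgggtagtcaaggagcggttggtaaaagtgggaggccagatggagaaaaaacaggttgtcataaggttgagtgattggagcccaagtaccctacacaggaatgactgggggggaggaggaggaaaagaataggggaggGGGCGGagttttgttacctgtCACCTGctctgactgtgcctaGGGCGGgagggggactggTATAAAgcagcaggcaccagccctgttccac
Muc4: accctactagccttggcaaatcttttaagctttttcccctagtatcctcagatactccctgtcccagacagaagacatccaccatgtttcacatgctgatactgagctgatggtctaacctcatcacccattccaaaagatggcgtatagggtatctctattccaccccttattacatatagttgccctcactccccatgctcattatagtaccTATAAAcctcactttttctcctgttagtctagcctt
Agr2: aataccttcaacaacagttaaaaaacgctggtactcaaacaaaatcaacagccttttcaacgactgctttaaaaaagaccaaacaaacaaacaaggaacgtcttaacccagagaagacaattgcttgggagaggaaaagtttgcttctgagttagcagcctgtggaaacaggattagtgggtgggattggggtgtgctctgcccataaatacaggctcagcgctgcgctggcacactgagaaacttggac
Muc1 held a TATA box (TATAAA) with its first base 31 bases before the start, GC boxes (GGGCGG) at 91 and 49 bases and E boxes (CAGGTG, read here on the opposite strand as CACCTG) at 234 and 70 bases. Muc4 held TATAAA at 36 bases and none of the other letters. Agr2 held none of the 5. The other motifs were a STAT palindrome (TTCNNNGAA) and a forkhead motif (TGTTTAC), neither of which stood in these 3 windows. Among 32817 RefSeq promoters of the same length, 12.4% held TATAAA, 32.7% GGGCGG, 17.2% CAGGTG, 7.01% TTCNNNGAA and 3.16% TGTTTAC. The windows were 54.8% GC in Muc1, 43.6% in Muc4 and 44.4% in Agr2, against a median of 52.4%. TATAAA, 31 to 36 bases before the start, was in Muc1 and Muc4 and not in Agr2.

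Libraries were of the 3' tag kind from formalin-fixed sections and held 5691707 to 8085609 counts. Levels are given in CPM, read counts relative to library size after TMM scaling (a correction for differences in library makeup), and because a 3' tag is counted about once per transcript, they are not divided by gene length. Fold changes are log2 values from edgeR's quasi-likelihood test, positive where Alb-Cre Stat3f/f tumours were higher, and a call means an adjusted p under 0.05 over 12856 tested genes. Of these, 383 were called (2.98%), 287 as higher (2.23%) and 96 as lower (0.747%) with Stat3 deleted in the host, and 2490 (19.4%) had an unadjusted p under 0.05. Stat3 itself was at 257 ± 15.5 CPM (SD, n = 6) in tumours of WT hosts and 258 ± 34 CPM in those of Alb-Cre Stat3f/f hosts (log2 fold change 0.00 ± 0.10, edgeR adjusted p = 0.996). The ductal keratin Krt19 (600 ± 47.9 and 548 ± 31.9 CPM) and Epcam (98.9 ± 46.7 and 72.3 ± 6.41 CPM) were present in each tumour. The tumours differed in normal exocrine pancreas. Counts of 22 acinar genes made up 6.46 ± 7.24% of a WT library and 23.4 ± 15% of an Alb-Cre Stat3f/f library, a difference of 16.94 percentage points (two-sided exact permutation test over 924 relabellings, p = 0.0346, adjusted over 2 measures 0.0692). The acinar score used below, the mean log2 CPM of the 20 tested acinar genes, was 9.05 ± 1.91 and 11.4 ± 2.73. Its difference gave p = 0.117 by the same permutation test, outside that adjustment. The acinar share ranged from 0.533% in WT 6 to 39.6% in Alb-Cre Stat3f/f 3, and 5 tumours exceeded 15%: WT 5 and Alb-Cre Stat3f/f 1 to 4.

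The set ran from an abundant trefoil factor to a gastric mucin at the edge of detection. Mean levels over the 12 tumours were 486 CPM for Tff2, 150 for Muc1, 129 for Msln, 9.13 for Muc4, 4.16 for Agr2, 1.98 for Tff3, 1.13 for Muc5ac, 0.77 for Tff1, 0.718 for Muc20 and 0.288 for Muc6. The order at the top was not fixed. Tff2 exceeded Muc1 in 7 of 12 tumours, in 2 of the WT tumours and 5 of the Alb-Cre Stat3f/f group, and Muc1 exceeded Msln in 8 of 12. Muc1 and Msln both exceeded Muc4 in 12 of 12 tumours, and Muc4 exceeded Agr2 in 11. Lower in the order, Muc5ac exceeded Tff1 in 8 tumours and Tff1 exceeded Muc20 in 5, so those neighbours did not keep an order. A low count filter passed 6 of the 10 genes (Muc1, Muc4, Tff2, Tff3, Agr2 and Msln). None of the 6 was called by edgeR (0 against 2.98% of all tested genes), while 2 of the 6, Msln and Tff2, had an unadjusted p under 0.05 (19.4% of all tested genes). DESeq2 called the same 2 genes among the 9 it tested, against 5.99% of its 14967 genes.

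**Figure D1:**
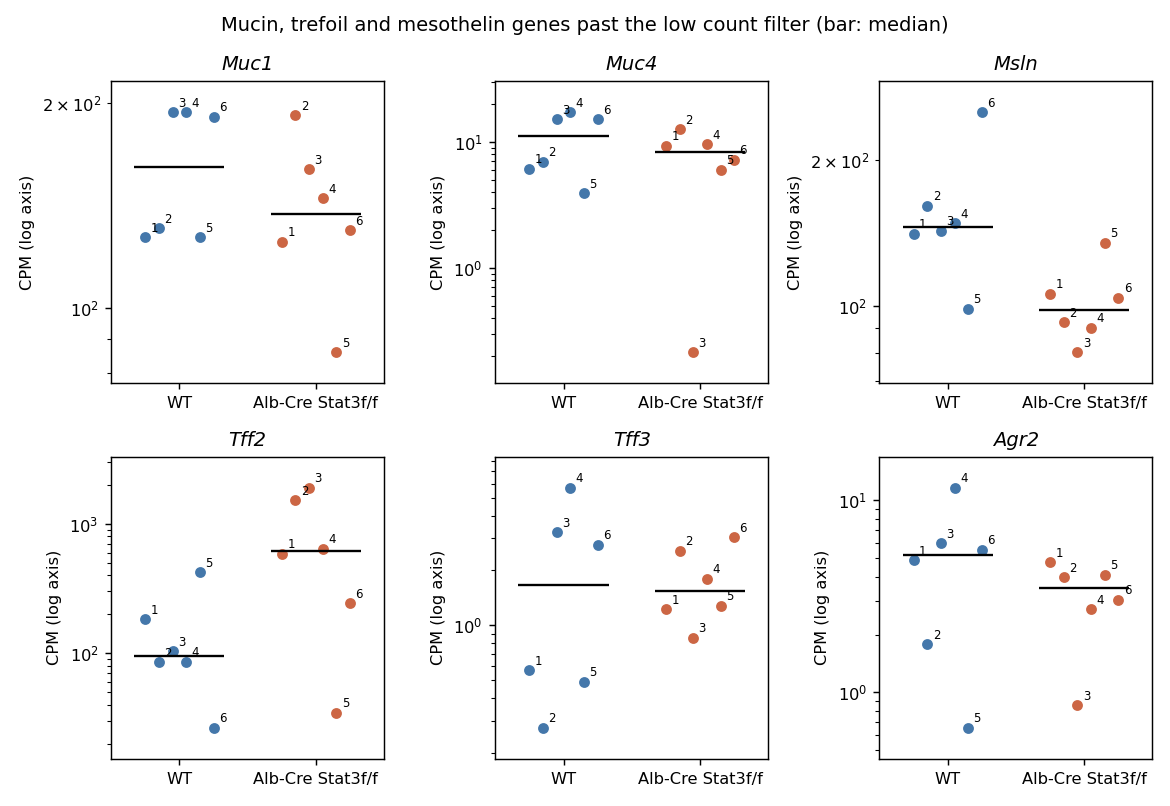
Level of each of the 6 genes that passed the low count filter, in CPM on a log axis, with 1 point per tumour numbered as in its label and a bar at the group median. Muc4 drops to 0.214 CPM in Alb-Cre Stat3f/f 3, and Tff2 spans 26.5 to 1898 CPM.

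Muc1, the membrane mucin whose cytoplasmic tail signals with receptor kinases and beta-catenin, was abundant in each tumour. WT tumours 1 to 6 held 127, 131, 194, 194, 127 and 191 CPM, and Alb-Cre Stat3f/f tumours 1 to 6 held 125, 192, 160, 145, 86 and 130 CPM. The WT values fell into a lower trio and a higher trio, the groups overlapped, and the lowest value was that of Alb-Cre Stat3f/f 5. The means were 161 ± 35.7 and 140 ± 35.8 CPM (SD, n = 6 each), with a log2 fold change of -0.21 ± 0.18 (SE; 95% interval -0.58 to 0.17; edgeR adjusted p = 0.566). The difference was smaller than the spread between tumours of a group. Its range of 2.26-fold between the lowest and highest tumour was the narrowest of the 6 tested genes.

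Muc4, a very large membrane mucin that binds ErbB2 and is switched on during pancreatic carcinogenesis, was about an order of magnitude lower than Muc1. Its levels were 6.14, 6.97, 15.1, 17.2, 3.92 and 15.2 CPM in WT tumours 1 to 6 and 9.33, 12.6, 0.214, 9.61, 6.02 and 7.22 CPM in Alb-Cre Stat3f/f tumours 1 to 6. Alb-Cre Stat3f/f 3 stood apart with a single count in 8085609, where the other 11 tumours held 24 to 145 counts, and the range between tumours was 80-fold. WT tumours 3, 4 and 6, which were the high trio for Muc1, were also the 3 highest for Muc4. The group means were 10.8 ± 5.7 and 7.51 ± 4.23 CPM, and the log2 fold change of -0.52 ± 0.53 (95% interval -1.69 to 0.64; edgeR adjusted p = 0.637) lay within the spread. Without Alb-Cre Stat3f/f 3 it was -0.29. Muc20, its overlapping neighbour and a small membrane mucin, gave 6, 7, 10, 9, 1 and 3 counts in WT tumours and 1, 1, 8, 2, 9 and 4 in Alb-Cre Stat3f/f tumours. The highest Muc20 level, 1.71 CPM, was in Alb-Cre Stat3f/f 3, the tumour with the single Muc4 count. Summed over groups and scaled for library size, its ratio of Alb-Cre Stat3f/f to WT was 0.862 (95% interval 0.496 to 1.48, exact binomial, counting error only).

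**Figure D2:**
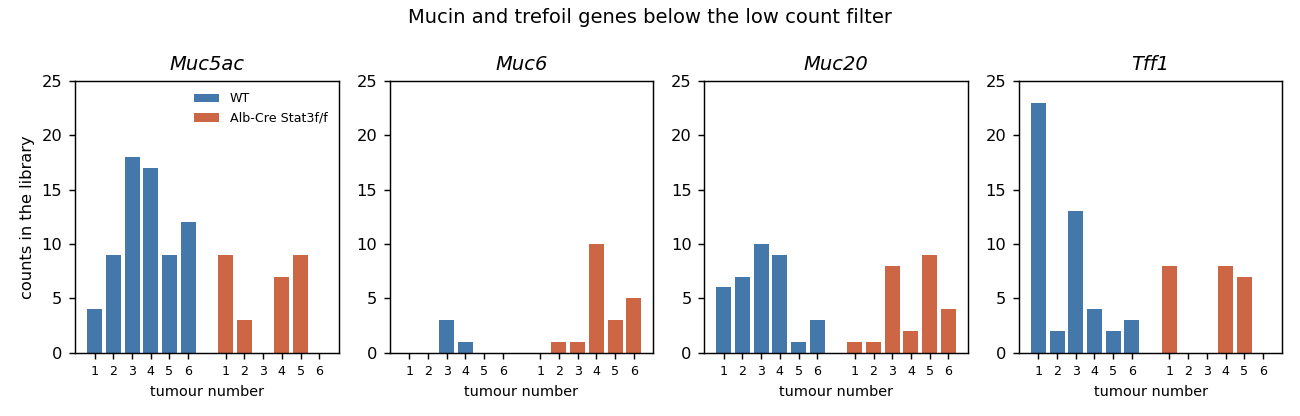
Counts of Muc5ac, Muc6, Muc20 and Tff1 in each library, with a bar per tumour and the same axis from 0 in each panel. No library holds more than 23 counts of any of these genes, and Muc6 holds 4 counts in all WT tumours together and 20 in the Alb-Cre Stat3f/f tumours.

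The gel-forming mucins were near the detection limit. Muc5ac, the main gastric surface mucin, gave 4, 9, 18, 17, 9 and 12 counts in WT tumours 1 to 6 and 9, 3, 0, 7, 9 and 0 in Alb-Cre Stat3f/f tumours 1 to 6. The groups overlapped, with 3 WT tumours above every Alb-Cre Stat3f/f tumour. The counts summed to 69 and 28, a ratio of 0.504 (95% interval 0.313 to 0.792, counting error only, which leaves out the spread between tumours). In a fit without the low count filter its log2 fold change was -0.99 ± 0.67 (edgeR adjusted p = 0.471), so the difference was not distinguishable from that spread. The 0 counts in Alb-Cre Stat3f/f 3 and 6 allow levels of up to 0.371 and 0.408 CPM before TMM scaling (3 counts).

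Muc6, the mucin of gastric glands and duodenal Brunner glands, gave 0, 0, 3, 1, 0 and 0 counts in WT tumours and 0, 1, 1, 10, 3 and 5 in Alb-Cre Stat3f/f tumours. It was detected in 2 of the WT tumours and 5 of the Alb-Cre Stat3f/f tumours, and 3 of the latter were above every WT tumour. The ratio of summed counts was 6.21 (95% interval 2.08 to 25), 3.79 without Alb-Cre Stat3f/f 4, which held 10 of the 20 counts, and 20.5 (95% interval 3.28 to 850) without WT 3. In the unfiltered edgeR fit the log2 fold change was 2.34 ± 1.12 with an adjusted p of 0.291. A WT tumour without a count allows up to 0.395 to 0.527 CPM before TMM scaling, depending on its library, so a level as low as the single counts of Alb-Cre Stat3f/f 2 and 3 could have been missed.

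The trefoil factors did not share a pattern. Tff1, which dimerises and sits with Muc5ac in the stomach, gave 23, 2, 13, 4, 2 and 3 counts in WT tumours and 8, 0, 0, 8, 7 and 0 in Alb-Cre Stat3f/f tumours. WT 1 alone held 23 of the 47 WT counts: the ratio of summed counts was 0.608 (95% interval 0.352 to 1.02) and 0.962 without WT 1. The fit without a filter gave -0.68 ± 0.82 (edgeR adjusted p = 0.708). Tff3, the trefoil factor of intestinal goblet cells, was at 0.569, 0.274, 3.25, 5.68, 0.49 and 2.77 CPM in WT tumours and 1.23, 2.57, 0.857, 1.8, 1.28 and 3.04 CPM in Alb-Cre Stat3f/f tumours. WT tumours 3, 4 and 6 were high and WT tumours 1, 2 and 5 low, with the Alb-Cre Stat3f/f tumours largely between them. Its log2 fold change of -0.28 ± 0.59 (95% interval -1.51 to 0.96; edgeR adjusted p = 0.842) had no stable sign, since it was 0.28 without WT 4 and 0.15 with acinar content as a covariate.

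Tff2 was the most abundant of the genes on average. It stood at 184, 84.7, 104, 86, 424 and 26.5 CPM in WT tumours 1 to 6 and at 588, 1517, 1898, 641, 34.6 and 243 CPM in Alb-Cre Stat3f/f tumours 1 to 6, a 71.7-fold range. Alb-Cre Stat3f/f tumours 1 to 4 exceeded every WT tumour, while Alb-Cre Stat3f/f 5 was lower than all WT tumours but WT 6. The means were 152 ± 143 and 820 ± 732 CPM, and the log2 fold change was 2.44 ± 0.91 (95% interval 0.41 to 4.46; edgeR adjusted p = 0.18, 0.0228 before adjustment). DESeq2 gave 2.42 with an adjusted p of 0.0471, past the threshold. In tumour sections such as these, more cells that make a transcript and more transcript per cell cannot be told apart.

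Tff2 rose and fell with the acinar genes. Its log2 CPM correlated with the acinar score, the mean log2 CPM of 20 tested acinar genes, with Pearson r = 0.99 and Spearman rho = 0.99 over 12 tumours (permutation p = 1e-05 for each, the smallest that 100000 draws give; adjusted over 12 relations 0.00012). Without the 2 tumours farthest from the median score, WT 6 and Alb-Cre Stat3f/f 5, r was 0.98. Within WT tumours alone r was 0.99 (exact permutation p = 0.00278, adjusted over 24 relations 0.0334), and within Alb-Cre Stat3f/f tumours it was also 0.99 (exact permutation p = 0.00139, adjusted 0.0334). Of 10590 other genes with a mean of at least 5 CPM, 27 had a higher correlation with the score. Those 10590 include the acinar genes that make up the score, whose correlation with it is partly built in. Tff2 rose by 0.77 log2 units per log2 unit of the score, inside the range of the acinar genes themselves (0.65 to 1.21, median 1.03). Counted against the acinar list, Tff2 gave 3.69 ± 1.65 counts per 1000 acinar counts in WT tumours and 3.01 ± 1.64 in Alb-Cre Stat3f/f tumours (two-sided exact permutation test, p = 0.481). That ratio was highest in WT 6 (6.3) and Alb-Cre Stat3f/f 5 (6.31), the 2 tumours with the smallest acinar share, and 1.98 to 4.96 in the other 10. Because the ratio varied with acinar share, whose mean differed between the groups, its test does not compare Tff2 at equal acinar content.

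**Figure D3:**
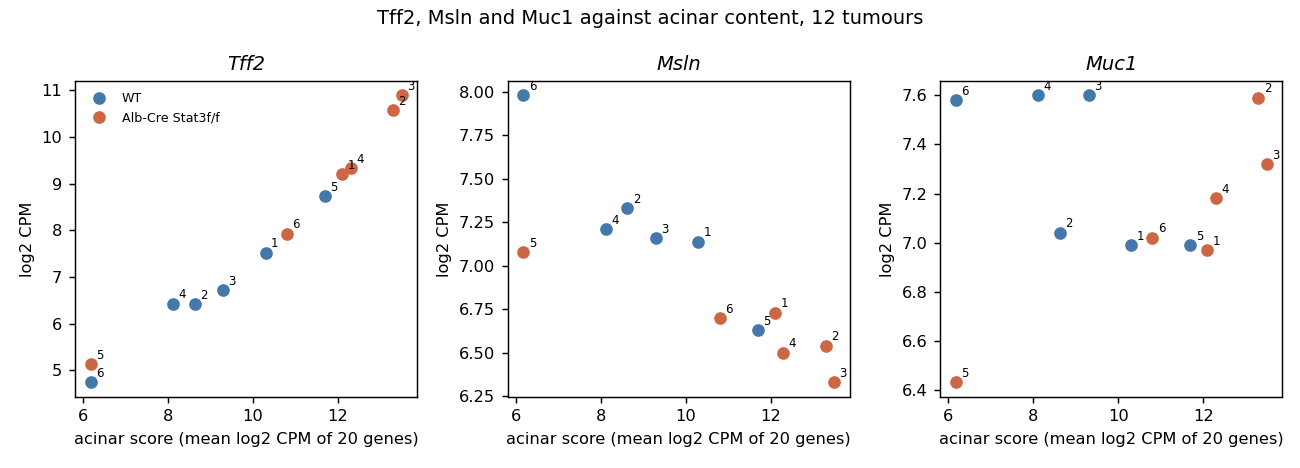
Log2 CPM of Tff2, Msln and Muc1 against the acinar score of the same tumour, the mean log2 CPM of 20 acinar genes, with 1 numbered point per tumour coloured by host genotype. Tff2 rises along the score (r = 0.99) and Msln falls (r = -0.88), while Muc1 shows no common line (r = 0.13).

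Agr2, the enzyme of mucin folding, was at 4.89, 1.78, 5.99, 11.6, 0.654 and 5.54 CPM in WT tumours and 4.76, 3.97, 0.857, 2.7, 4.1 and 3.04 CPM in Alb-Cre Stat3f/f tumours. WT 4 was the highest and WT 5 the lowest, and 4 WT tumours were above every Alb-Cre Stat3f/f tumour. The log2 fold change of -0.65 ± 0.50 (95% interval -1.70 to 0.40; edgeR adjusted p = 0.506) was within the spread, and it was -0.23 without WT 4. Across the 12 tumours Agr2 followed Muc4 (r = 0.75; 0.74 without WT 3, the weakest value on leaving out a tumour) and Tff3 (r = 0.70; 0.59 without WT 4). Muc4 and Tff3 correlated with r = 0.54, and Muc1 correlated with Tff3 (r = 0.58) more than with Muc4 (0.27) or Agr2 (0.31). The points of these correlations share libraries and low counts, and they are given as a description. Agr2 also rose with the epithelial score, the mean log2 CPM of 16 ductal and tumour epithelial genes (rho = 0.78, permutation p = 0.0042, adjusted over 12 relations 0.0168; r = 0.64, p = 0.0264, adjusted 0.106). Without WT 6 and Alb-Cre Stat3f/f 4, the 2 tumours farthest from the median score, r was 0.72. Within WT tumours r was 0.73 (exact permutation p = 0.0819) and within Alb-Cre Stat3f/f tumours 0.39 (exact permutation p = 0.429), so neither genotype alone passed the threshold. The epithelial score itself was 6.57 ± 0.167 in WT tumours and 6.48 ± 0.124 in Alb-Cre Stat3f/f tumours (two-sided exact permutation test, p = 0.31). That score weighs each gene equally, and 5 of the 16 had a positive log2 fold change and 11 a negative one. Summed in CPM, where abundant genes weigh more, the 16 genes gave 3881 to 4572 in WT tumours. In Alb-Cre Stat3f/f tumours the sum was 2913 to 3741 CPM, without overlap.

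Msln had the smallest p-value of the set, in the lower direction. WT tumours 1 to 6 held 141, 161, 143, 148, 98.7 and 251 CPM, and Alb-Cre Stat3f/f tumours 1 to 6 held 106, 92.6, 80.4, 90.3, 135 and 104 CPM. All WT tumours but WT 5 exceeded every Alb-Cre Stat3f/f tumour, and Alb-Cre Stat3f/f tumours 2, 3 and 4 were below every WT tumour. The means were 157 ± 50.7 and 101 ± 19 CPM, and the log2 fold change was -0.63 ± 0.18 (95% interval -1.02 to -0.24; edgeR adjusted p = 0.0743, 0.00359 before adjustment), just short of the threshold. DESeq2 called it (-0.64, adjusted p = 0.0126). EdgeR did so in 2 of the 12 fits that leave out a tumour. The edgeR adjusted p was 0.0157 without WT 5, the lowest WT tumour, and 0.031 without Alb-Cre Stat3f/f 5, the highest of its group. Alb-Cre Stat3f/f 1 and 6 also lay above WT 5, and leaving out either gave no call (edgeR adjusted p = 0.13 and 0.108). Without WT 6, the highest tumour, the log2 fold change was -0.45 (adjusted p = 0.103).

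Msln ran against acinar content. Its correlation with the acinar score was r = -0.88 (permutation p = 0.00012, adjusted 0.00072) and rho = -0.90 (permutation p = 0.0002, adjusted 0.0012), and r was -0.94 without WT 6 and Alb-Cre Stat3f/f 5. Within WT it was -0.95 (exact permutation p = 0.00972, adjusted 0.0583) and within Alb-Cre Stat3f/f tumours -0.93 (exact permutation p = 0.0125, adjusted 0.06). Of 10590 other genes, 34 had a lower correlation with the score. The slope was shallow, a drop of 0.16 log2 units of Msln per log2 unit of the score. WT 5, the WT tumour with the largest acinar share, had the lowest Msln level of its group, and Alb-Cre Stat3f/f 5, with the smallest acinar share of its group, had the highest. Tff2 and Msln were accordingly opposed (r = -0.89). For the other tested genes the pooled correlation with the acinar score did not pass the threshold (Muc4 r = -0.44, Agr2 -0.49, Tff3 -0.20, Muc1 0.13). For Muc1 it was -0.69 within WT tumours (exact permutation p = 0.126, adjusted 0.288) and 0.93 within Alb-Cre Stat3f/f tumours (exact permutation p = 0.00833, adjusted 0.0583), and the difference between these was not tested.

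Mesothelin also marks mesothelial cells, so the defining genes of that lining were read beside it. The 11 mesothelial genes in the table summed to 23.9 to 44.9 CPM in WT tumours and 20.4 to 43.3 CPM in Alb-Cre Stat3f/f tumours, below the level of Msln alone in each group. Much of the WT sum was Krt14, at 16.2 ± 8.57 CPM in WT tumours and 5.23 ± 2.93 CPM in Alb-Cre Stat3f/f tumours. The similar sums therefore do not show that the other mesothelial genes were level between the groups. None of the 11 was at 0 throughout, but Upk3b, a mesothelial uroplakin, gave 13 and 15 counts in the 2 groups, Bnc1 3 and 7, and Calb2 (calretinin) 17 and 21. Wt1, the mesothelial transcription factor, was at 5.2 ± 1.08 and 8.07 ± 4.37 CPM (log2 fold change 0.62, edgeR adjusted p = 0.287). Of the 7 tested genes, 6 had a positive log2 fold change, opposite in sign to Msln, and none of these passed. The remaining one, Krt14, a keratin found in basal epithelia as well, fell (-1.62 ± 0.41, edgeR adjusted p = 0.0473), a call lost with the acinar covariate (-1.33, adjusted p = 0.152), the epithelial covariate (-1.34, 0.132), no filter (-1.63, 0.0798), the tumour number as a block (-1.65, 0.065), without the acinar-rich tumours (-1.45, 0.385) and on leaving out any of 9 of the 12 tumours (-1.41 to -1.89 over the 12). The part of mesothelial cells in the Msln level was not tested.

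With acinar content in the fit, the genotype differences of Tff2 and Msln shrank. Tff2 went from 2.44 ± 0.91 to 0.38 ± 0.17 (edgeR adjusted p = 0.392, 0.0404 before adjustment) when the acinar score was a covariate. Msln went from -0.63 ± 0.18 to -0.30 ± 0.13 (edgeR adjusted p = 0.34, 0.0282 before adjustment). Both differences kept their sign and an unadjusted p under 0.05. The covariate was not balanced by genotype, with a mean score of 9.05 for WT hosts against 11.4 (two-sided exact permutation test, p = 0.117). Leaving out the 5 tumours with an acinar share over 15% kept 5 from WT hosts and 2 from Alb-Cre Stat3f/f hosts, and Tff2 gave 0.52 ± 0.93 (edgeR adjusted p = 0.912) and Msln -0.50 ± 0.23 (edgeR adjusted p = 0.484). Those 5 tumours were also the 5 with the most Tff2, so this comparison removed the upper end of its range. Muc1 went the other way, to -0.35 ± 0.22 with the covariate and -0.64 ± 0.22 without those tumours (edgeR adjusted p = 0.285), and Muc4 was at -0.87 ± 0.41 without them (edgeR adjusted p = 0.47). For Muc1, 1 of the 2 Alb-Cre Stat3f/f tumours kept was tumour 5, with the lowest Muc1 level of all tumours (86 CPM). With the epithelial score as a covariate Msln was -0.50 ± 0.17 (edgeR adjusted p = 0.145), Tff2 2.45 ± 0.93, Muc1 -0.08 ± 0.16, Muc4 -0.17 ± 0.53 and Agr2 -0.16 ± 0.50, the last 2 from -0.52 and -0.65 with genotype alone.

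**Figure D4:**
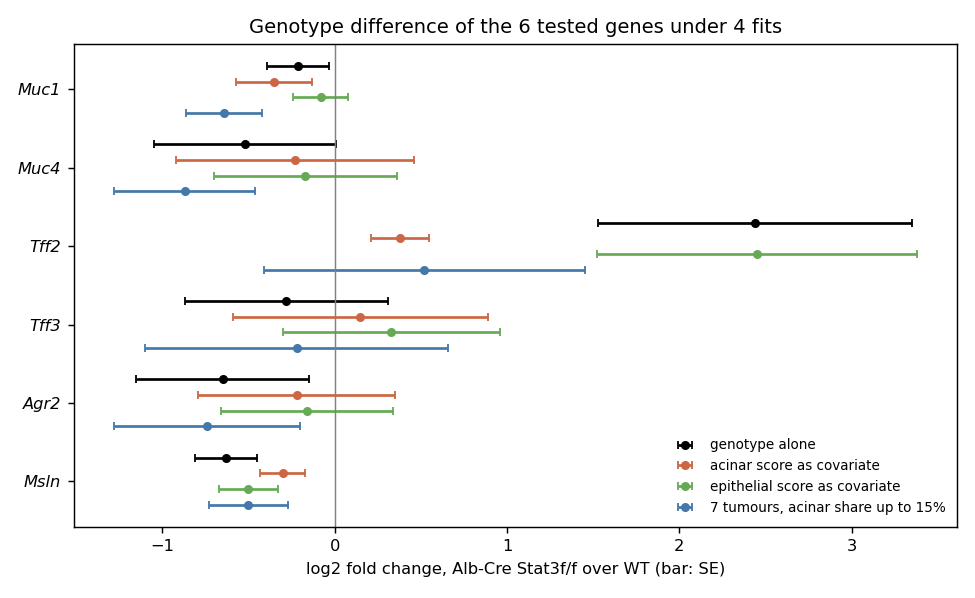
Log2 fold change of the 6 tested genes, Alb-Cre Stat3f/f over WT, under 4 fits; bars are standard errors. Tff2 moves from 2.44 with genotype alone to 0.38 with the acinar score as a covariate, and Muc1 lies furthest from 0 (-0.64) in the 7 tumours with an acinar share up to 15%.

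The genes with the most similar course across the 12 tumours differed from gene to gene, by Pearson r of log2 CPM among 10590 genes with a mean of at least 5 CPM. Those of Tff2 were Tmed6 (r = 0.994), Gp2 (0.991), the major membrane protein of acinar zymogen granules, and Pnliprp1 (0.991), a pancreatic lipase relative, and 150 genes exceeded 0.9. Those of Muc1 were Smim22 (0.86), Chmp4c (0.82), a membrane-fission subunit, and Nr1d1 (0.81), a circadian repressor, and none exceeded 0.9. Those of Muc4 were Gpx2-ps1 (0.975), Mettl13 (0.936) and Ubr1 (0.929), but without Alb-Cre Stat3f/f 3 these fell to 0.91, 0.72 and 0.63. Those of Msln were Spryd3 (0.943), Porcn (0.926), the acyltransferase of Wnt proteins, and Snhg9 (0.920), each at 0.87 or more whichever tumour was left out. None of these neighbours was shared between the 4 genes.

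**Figure D5:**
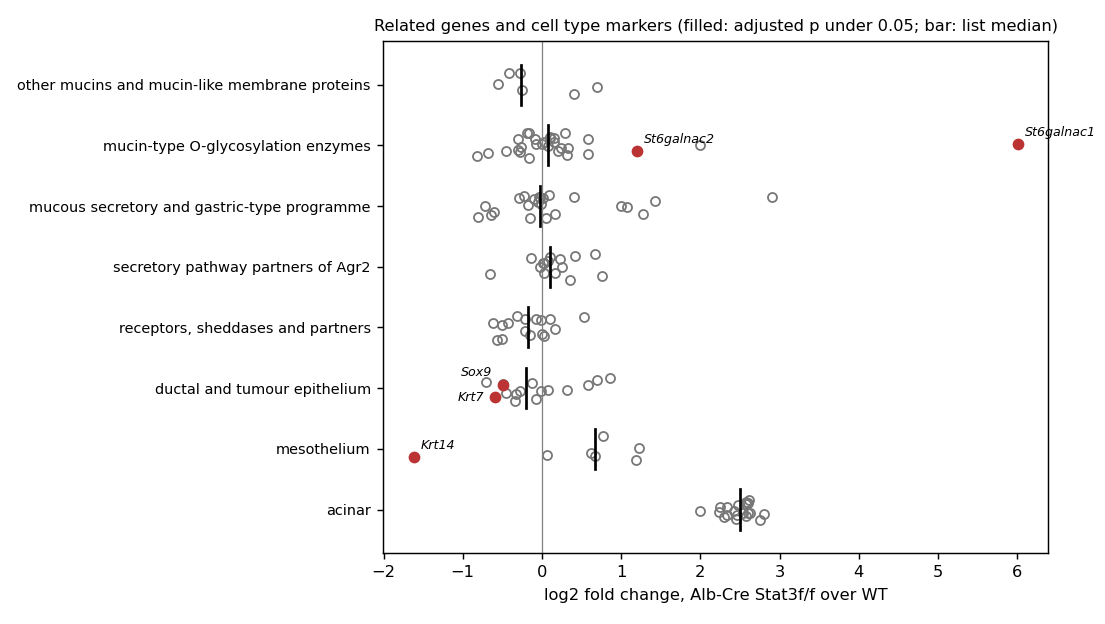
Log2 fold change of each tested gene, Alb-Cre Stat3f/f over WT, in 5 lists of related genes and 3 lists of cell type markers, with filled points for an adjusted p under 0.05 and a bar at the list median. St6galnac1 (6.01) and St6galnac2 (1.20) are the called genes among the O-glycosylation enzymes, and the acinar genes lie together near their median of 2.50.

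The enzymes that build mucin sugars held the largest genotype difference among the related genes. Of 29 tested O-glycosylation enzymes, 2 rose and 0 fell, against 2.23% and 0.747% of all genes, with a list median of 0.08 against -0.00 over all genes. At an unadjusted p under 0.05 there were 5 higher and 3 lower, and DESeq2 called the same 2 genes. St6galnac1, the sialyltransferase that caps the first O-linked sugar to make sialyl-Tn, gave 3 counts in the WT group, all from tumour 6, against 196 in the Alb-Cre Stat3f/f group, 20 to 45 per tumour. All 6 Alb-Cre Stat3f/f tumours were above every WT tumour. The ratio of summed counts was 81.1 (95% interval 27.4 to 397, counting error only), and the log2 fold change was 6.01 ± 0.62 (edgeR adjusted p = 2.36e-05). Without WT 6 no WT tumour held a count, and the fitted value, which then depends on the prior count and is no bound, was 8.21 (adjusted p = 3.64e-05). St6galnac2, a related sialyltransferase, rose from 4.89 ± 1.75 to 11.2 ± 3.04 CPM (log2 fold change 1.20 ± 0.27, edgeR adjusted p = 0.0183), again with 6 of 6 above every WT tumour. Its call was lost with the acinar covariate (0.0615), without the acinar-rich tumours (0.101) and with the tumour number as a block (0.0666), at log2 fold changes of 1.09, 1.38 and 1.22. These 2 genes lie close together on the minus strand of chromosome 11, at chr11:116765025-116775507 and chr11:116675303-116694868. The enzymes that start and extend the chains were not called: Galnt1 was at 146 ± 19.3 and 157 ± 23.1 CPM, Galnt3 at 29.9 ± 6.02 and 28.7 ± 8.18, C1galt1 at 20.3 ± 2.73 and 16.8 ± 5.13, and the mucin core enzyme Gcnt3 at 39.9 ± 15.7 and 24.9 ± 10.6.

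Of 6 tested mucins and mucin-like proteins outside the set, 0 rose and 0 fell by edgeR (median -0.26), 3 had an unadjusted p under 0.05, and DESeq2 called 0 of 8. The smallest p-values belonged to Cd164, or endolyn (0.40 ± 0.14, edgeR adjusted p = 0.125), and Selplg, the selectin ligand of leukocytes (0.70 ± 0.25, edgeR adjusted p = 0.137). Muc13, a membrane mucin of gut epithelium, was at 12.2 ± 9.47 and 8.34 ± 5.12 CPM, and the gel-forming Muc2 and Muc5b gave 50 and 43 counts in the WT group and 24 and 22 in the other. Among 23 tested genes of the mucous secretory and gastric-type programme, 0 rose and 0 fell by edgeR (median -0.03). At an unadjusted p under 0.05 there were 6 higher and 3 lower, and DESeq2 called 4 of 25, including Ptprn2, Syt8 and Ctse. Syt8, a secretory synaptotagmin, gave -0.81 ± 0.28 (edgeR adjusted p = 0.122). Among the regulators of mucous and gastric differentiation, Spdef, Gata6 and Foxa2 differed little. Spdef was at 3.27 ± 1.41 and 3.59 ± 2.33 CPM, Gata6 at 38 ± 9.7 and 36.8 ± 7.11, and Foxa2 at 106 ± 11.2 and 93.6 ± 10.1. Other regulators moved more, without a call by edgeR. Foxa3 (1.07 ± 0.42, edgeR adjusted p = 0.187) and Xbp1 (1.00 ± 0.39, 0.19) were higher, and Creb3l4 (-0.72 ± 0.40, 0.347) was lower. The gastric-type protease Ctse was at 98.9 ± 30.2 and 63.5 ± 17.1 CPM (-0.64 ± 0.23, edgeR adjusted p = 0.147).

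The endoplasmic reticulum partners of Agr2 gave 0 called of 15 tested by edgeR (median 0.10), 4 with an unadjusted p under 0.05, and 1 called by DESeq2, Sdf2l1. Closest to the edgeR threshold were Sdf2l1 (0.76 ± 0.24, edgeR adjusted p = 0.105) and Dnajb11 (0.42 ± 0.17, edgeR adjusted p = 0.184), both chaperone cofactors. The chaperone Hspa5 was at 1013 ± 131 and 1023 ± 120 CPM. Of 16 tested receptors, sheddases and binding partners of these proteins, 0 passed by edgeR in either direction (median -0.18). At an unadjusted p under 0.05, 1 was higher and 6 were lower, and DESeq2 called 3 of 16 lower: Ctnnb1, Erbb3 and Ackr3. Ctnnb1, beta-catenin, which binds the Muc1 tail, was at 858 ± 59.6 and 636 ± 125 CPM (-0.43 ± 0.12, edgeR adjusted p = 0.0509), and 5 of 6 Alb-Cre Stat3f/f tumours were below every WT tumour. The kinase receptors Erbb3 (-0.57 ± 0.18, 0.0791) and Erbb2 (-0.50 ± 0.16, 0.0986) were near the threshold in the same direction, while the sheddases Adam17 and Adam10 had log2 fold changes of -0.00 and -0.01.

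Markers of the cells that could supply these transcripts were read the same way. The shares over all genes apply to these lists and to those above. EdgeR called 2.23% higher and 0.747% lower, 19.4% had an unadjusted edgeR p under 0.05, and DESeq2 called 5.99% in either direction. In the ductal and tumour epithelial list, 2 of 16 tested genes fell and 0 rose (median -0.20). They were Sox9, a ductal transcription factor (926 ± 70.6 to 661 ± 65.8 CPM, -0.49 ± 0.10, edgeR adjusted p = 0.0103), and the ductal keratin Krt7 (522 ± 54.4 to 348 ± 63 CPM, -0.59 ± 0.12, edgeR adjusted p = 0.0113), each with 6 of 6 Alb-Cre Stat3f/f tumours below every WT tumour. In the 7 tumours left without the acinar-rich ones Sox9 was at -0.47 (adjusted p = 0.16) and Krt7 at -0.40 (adjusted p = 0.23), and with the acinar covariate they were at -0.47 (adjusted p = 0.027) and -0.48 (adjusted p = 0.0534). Cdh1, E-cadherin, was at 947 ± 114 and 755 ± 95.4 CPM (edgeR adjusted p = 0.11). DESeq2 called 5 lower and 1 higher in this list. Of 4 tested gastric genes none passed by edgeR, 1 had an unadjusted p under 0.05, and DESeq2 called none of 7. The gastric list summed to 62.7 to 80.1 CPM in WT tumours and 40.5 to 69.7 CPM in Alb-Cre Stat3f/f tumours, led by Aqp5, a water channel (42.2 ± 11.9 and 28 ± 13.6 CPM), and Gkn3, a gastrokine (16.5 ± 3.81 and 11.5 ± 2.96 CPM). The parietal cell gene Atp4b and the chief cell gene Chia1 were at 0 in every tumour, while the parietal gene Atp4a gave 48 and 19 counts in the 2 groups, Pgc 45 and 17, Gkn1 201 and 73, and Gif 155 and 321 (log2 fold change of Gif 1.55 ± 0.82, edgeR adjusted p = 0.332). In the intestinal list 0 of 7 passed by edgeR, 2 had an unadjusted p under 0.05, and DESeq2 called 0 of 10. Cdx1, Lgals4 and Defa24 were at 0 throughout, while Vil1 (28.7 ± 10.1 and 20 ± 5.97 CPM), Cdx2 (15.4 ± 2.43 and 13 ± 5.49 CPM) and Clca1 (8.64 ± 4.35 and 7.93 ± 2.8 CPM) were present. Its sum of 156 to 2739 and 181 to 13513 CPM was led by Zg16, which acinar cells also make, followed by Cdh17 (66.9 ± 16.5 and 53.6 ± 7.91 CPM). The acinar list, led by Ctrb1 and Rnase1, had a median log2 fold change of 2.50, beside 2.44 for Tff2. EdgeR called 0 of its 20 tested genes, 9 had an unadjusted p under 0.05, and DESeq2 called 2 of 22. Among the other cells of the tumour, 6 of 8 macrophage genes rose by edgeR (median 0.63), 8 were higher at an unadjusted p under 0.05, and DESeq2 called 7. They included C1qa, a complement subunit (474 ± 78.3 to 674 ± 127 CPM, log2 fold change 0.51, edgeR adjusted p = 0.0445). Its call was lost with the epithelial covariate (0.47, adjusted p = 0.091), with the tumour number as a block (0.50, adjusted p = 0.118) and on leaving out any of 9 of the 12 tumours, while its log2 fold change stayed at 0.43 to 0.57 over the 12. The receptor Csf1r missed the threshold in the fit with all tumours (406 ± 103 and 639 ± 164 CPM, edgeR adjusted p = 0.0833). Of 7 T cell genes 1 rose by edgeR, Cd247 (median 1.09), all 7 were higher at an unadjusted p under 0.05, and DESeq2 called 5 of 7 higher. The most abundant were Cd3d at 7.24 ± 4.03 and 14.8 ± 4.53 CPM and Cd8a at 4.1 ± 2.37 and 10.3 ± 4.7 CPM. Of 10 fibroblast genes 1 rose by edgeR, Dcn (median 0.20), 3 were higher at an unadjusted p under 0.05 and DESeq2 called 1, with Col1a2 at 1740 ± 475 and 2430 ± 598 CPM and Col1a1 at 1683 ± 359 and 1879 ± 395 CPM. Of 7 islet genes 0 passed by edgeR, 1 had an unadjusted p under 0.05 and DESeq2 called 1 (median 1.06), with Ins2 at 120 ± 216 and 251 ± 232 CPM and Gcg at 43.9 ± 51.2 and 94.8 ± 84.4 CPM. The part of these cells in the levels of the mucin, trefoil and mesothelin genes was not tested.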

How the data were processed

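RNA was scraped from formalin-fixed, paraffin-embedded tumour sections and made into QuantSeq 3' FWD libraries, per the labels' protocols. The authors deposited a merged table of raw counts per gene symbol. STAR and the mm10 build are named in the submitters' processing notes, with the versions, the counter and its strand setting not given in the sources used here. Of 24982 entries, 26 whose symbols had turned into dates were left out (0.069 to 0.166% of counts per tumour), leaving 24956 genes. Groups and tumour numbers came from the sample titles.

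Counts were filtered with filterByExpr (minimum count 10, minimum total 15, proportion 0.7), scaled by TMM (factors 0.578 to 1.29) and tested with edgeR 4.0.16 (quasi-likelihood, robust; common dispersion 0.0626) in R 4.3.3, with Benjamini-Hochberg adjustment over all tested genes at 0.05. Log2 CPM used a prior count of 2. Genes below the filter were compared as ratios of summed counts with exact binomial 95% intervals, and a count of 0 was read as up to 3 counts. Intervals cover counting error only. Positions came from GENCODE for GRCm38. Alternatives were DESeq2 1.42.0, RLE factors, other filters, thinning to 5691707 counts, scaling without acinar genes and Rn45s, acinar and epithelial covariates, leaving out acinar-rich tumours or each tumour in turn, and the tumour number as a block. The scripts were tested on simulated data.

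The 10 genes and all lists were chosen with earlier results of these data known. Named genes were the 10 genes, Stat3, Krt19 and Epcam; in each list of related genes up to 4 called genes, or else the 2 with the smallest p; the 2 most abundant genes of each cell type list; and the 3 genes nearest to each tested gene of at least 5 CPM. Further genes were named after their values were seen: Galnt1, Galnt3, C1galt1, Gcnt3, Muc13, Muc2, Muc5b, Spdef, Gata6, Foxa2, Foxa3, Xbp1, Creb3l4, Ctse, Hspa5, Erbb2, Adam10, Adam17, Krt7, Ptprn2, Ackr3, Dcn, Cd247 and single markers of mesothelium, stomach and intestine. Of the genes the rule names, 1 is not reported here.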

Additional observations from a re-analysis of the deposited data

Results flagged for a closer look

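Muc6 in WT 3 stood apart from its group: its level of 0.374 CPM compared with 0 to 0.118 CPM in the other 5 WT tumours, and the gap to the nearest of them was 0.684 of the whole range, above the critical value of 0.625 for 6 samples. The value rests on 3 counts in WT 3 and 1 in WT 4. The 10 genes, the acinar share and the epithelial score were examined in both genotypes, 24 groups in all. On this linear CPM scale it was the 1 group that stood out, and chance gives about 1 in 20. With counts of 0, 1 and 3, the critical value, made for continuous measures, holds only roughly. Muc4 in Alb-Cre Stat3f/f 3 was not flagged on this scale, at 0.214 CPM against 6.02 to 12.6 CPM in its group. In log2 CPM it was at -0.99 against 2.66 to 3.69, a scale on which the rule was not applied.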

How the results depend on the processing

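The count of called genes moved most. Against 287 higher and 96 lower (74.9% higher), DESeq2 gave 614 and 283, the acinar covariate 129 and 27, the tumours without the acinar-rich ones 83 and 14 (85.6% higher) and the tumour number as a replicate block 145 and 44. Leaving out a tumour gave 141 to 471 higher and 37 to 222 lower. The count of higher genes moved by over 1.5 times without WT 1 (187), 3 (169), 4 (182) or 6 (157) and Alb-Cre Stat3f/f 1 (141), 2 (186) or 5 (471). The count of lower genes did so without WT 1 (57), 3 (45), 4 (63), 5 (152) or 6 (63) and Alb-Cre Stat3f/f 1 (37), 2 (52), 3 (60), 4 (197) or 5 (222). The cause was not tested.

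Of the 10 genes, 0 were called in the edgeR fits with all tumours, DESeq2 called 2 (Tff2 at 2.42 and Msln at -0.64), and leaving out a tumour gave 0 to 1, with Msln called without WT 5 (-0.73) or Alb-Cre Stat3f/f 5 (-0.74). The sign of Tff3 reversed with the acinar covariate (0.15), the epithelial covariate (0.33), the block (0.13) and without WT 4 (0.28), with a range of -0.52 to 0.28 on leaving out a tumour, while Muc1, Muc4, Tff2, Agr2 and Msln kept their direction in each setting in which they were tested. The acinar share difference was 13.69 to 21.48 points on leaving out a tumour and missed the threshold in 9 of 12 cases. The epithelial level stayed on its side in all 15 settings.

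Tumour numbers did not pair the genotypes: same-numbered tumours correlated at 0.13, -0.18, -0.09, 0.11, -0.51 and 0.10, and 0 of 6 matched their own number best. With the replicate block Msln gave -0.60 (adjusted p = 0.143) and Tff2 2.60 (0.39). At this depth genes under about 1 CPM, here Muc5ac, Muc6, Muc20 and Tff1, rest on 0 to 23 counts per tumour.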
